A study of Mus musculus with 16 samples.

Results

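The replication-dependent histone genes encode the H1, H2A, H2B, H3 and H4 proteins that package newly copied DNA. They were chosen by symbol: every mouse gene whose name begins with Hist1h, Hist2h, Hist3h or Hist4h, annotated pseudogenes left out, with a summed raw count of at least 160 over all libraries. In newer naming the rule gives H1f1 to H1f5, or H2ac, H2bc, H3c or H4c followed by a digit. Of 67 such genes that are not pseudogenes, 63 reached that count, out of 57132 genes in the count table and 19152 that entered the tests. The rule itself uses symbols and summed counts and no difference between groups, but this family was picked for description with earlier results of these data known. Hist1h2br lay just inside the minimum with 227 summed counts, and Hist1h2ba, a testis H2B gene, just outside it with 43. A minimum of 40 would have given 64 genes and one of 640 would have given 60. All 63 passed the filter on low counts. Matching used the older symbols, so the 63 include genes whose newer names lie outside the newer scheme. Among them are Hist1h1t (H1f6), Hist3h2a (H2aw), Hist3h2ba (H2bu2) and Hist4h4 (H4f16).

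The genes were measured by RNA-seq of whole mouse bone marrow in 16 libraries that form 8 groups of 2. Wild-type male C57BL/6 mice (spelt CB57BL/6 in the labels), aged 8 to 10 weeks, were set beside Nrf2-/- mice bred from Nrf2+/- parents, whose age the labels do not give. Nrf2, encoded by Nfe2l2, is a transcription factor of the antioxidant response, and the labels describe the mutant protein as an inactive form. Each genotype received PBS (the vehicle), BMX-001, 5-fluorouracil (5-FU), or both agents. BMX-001 is a redox-active manganese porphyrin, given at 0.5 mg/kg from 24 hours before 5-FU and then every 3 days. 5-FU is a pyrimidine analogue that inhibits thymidylate synthase and enters RNA and DNA, given at 20 mg/kg and repeated on day 7. The harvest followed on day 10. Marrow was taken in duplicate, and nothing says whether the duplicates came from separate animals, so p-values reflect only how far these duplicates differed, and that may be technical spread.

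Replication-dependent histone genes lie in clusters and are transcribed mainly in S phase, when the coactivator NPAT assembles with the transcription and processing machinery at histone locus bodies. Their mRNAs mostly lack introns and end in a short hairpin in place of a poly(A) tail. Stem-loop binding protein (SLBP) holds this hairpin during processing, translation and the decay that follows when DNA synthesis stops, although some of these genes can also make polyadenylated transcripts. In marrow, the dividing precursors of red cells, granulocytes and B cells are the main source of cells in S phase.

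The 3′ hairpin was searched as GGCTCTTTTNAGAGCC and, for looser matches, as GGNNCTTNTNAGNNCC, on the transcript strand of the GENCODE gene models of GRCm38. The strict form was found in 31 of the 63 genes and only the looser form in another 13, which were 12 H4 genes and Hist1h3g. Among 21834 other protein-coding genes the strict form was found in 2 (0.00916%) and the looser form in 90 (0.412%). The remaining 19 histone genes held neither form, and for 9 of them every annotated transcript was coding sequence only and stopped before a hairpin could be seen. Some of the other models were hardly longer: Hist1h2af had 399 and Hist1h2ah 405 bases, against 393 in the coding-only model of Hist1h2ai. A missing match therefore need not mean a missing hairpin. The sites below are from genes described later, with the 16-base hairpin in capitals and 5 bases on each side in lower case, written as DNA. They are shown because genes lower after 5-FU (the first 5) and genes that did not pass edgeR's test (Hist1h1t and Hist3h2a) carried the same letters: Hist3h2a has the hairpin of Hist1h1c, and Hist1h1t that of Hist1h3c.
Hist1h1c: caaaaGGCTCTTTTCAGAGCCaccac
Hist1h2bg: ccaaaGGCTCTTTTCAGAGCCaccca
Hist1h3c: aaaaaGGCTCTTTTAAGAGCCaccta
Hist1h4f: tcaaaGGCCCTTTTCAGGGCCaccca
Hist2h4: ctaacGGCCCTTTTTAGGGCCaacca
Hist1h1t: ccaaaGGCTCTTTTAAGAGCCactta
Hist3h2a: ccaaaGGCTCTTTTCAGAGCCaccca
The letters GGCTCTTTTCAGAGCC were the commonest, in 24 genes, and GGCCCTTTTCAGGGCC was found in 7 genes, all of H4.

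Promoters were read for 57 of the 63 genes from RefSeq (GRCm38.p6), as 250 bases before to 50 bases after the annotated start. CCAAT, on either strand, was present in 84.2% of these promoters against 37.4% of all 32817 promoters in the same table. By class it was in 100% of the H1, H2A, H2B and H3 promoters and in 25% of the H4 promoters. TATAAA, on either strand, was present in 56.1% against 13.6%, and the octamer ATTTGCAT in 19.3% against 1.74%. The octamer was found in 40% of the H2A and 33.3% of the H2B promoters and in none of the other classes. A match describes the letters only. The last 120 bases before the start are given for a linker gene and an H3 gene that fell after 5-FU, for the abundant H4 gene Hist1h4d, which passed in a single comparison, and for Hist2h3c2, an H3 gene that was not lower in wild-type marrow, with TATAAA and CCAAT (or ATTGG, its other strand) in capitals.
Hist1h1c, chr13:23738687-23738806, plus strand: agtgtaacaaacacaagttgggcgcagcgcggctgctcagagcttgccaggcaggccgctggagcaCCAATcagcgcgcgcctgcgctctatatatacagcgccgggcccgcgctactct
Hist1h3b, chr13:23752225-23752344, plus strand: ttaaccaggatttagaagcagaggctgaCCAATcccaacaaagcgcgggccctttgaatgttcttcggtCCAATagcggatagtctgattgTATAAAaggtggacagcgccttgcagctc
Hist1h4d, chr13:23581448-23581567, plus strand: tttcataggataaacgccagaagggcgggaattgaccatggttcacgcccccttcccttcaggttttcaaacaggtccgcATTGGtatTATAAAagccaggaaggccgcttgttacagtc
Hist2h3c2, chr3:96239128-96239247, minus strand: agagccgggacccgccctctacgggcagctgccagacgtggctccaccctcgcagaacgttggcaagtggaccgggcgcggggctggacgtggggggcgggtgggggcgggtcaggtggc
The TATAAA began 29 bases before the start in Hist1h3b and 32 bases before it in Hist1h4d.

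The libraries held 27305707 to 39909188 counts. Nfe2l2 was at 102 to 122 CPM (counts scaled to library size, here and below with edgeR's TMM factors) in the 8 wild-type libraries and at 6.48 to 16.7 CPM in the 8 Nrf2-/- libraries. Marrow markers were present in every library: the summed haemoglobin genes were at 37490 to 75818 CPM, the neutrophil list at 25523 to 38855 CPM, the B-cell precursor list at 595 to 1351 CPM, and the liver and islet markers Alb, Apoa1 and Ins2 together at most at 0.0335 CPM. Replicate 1 of the Nrf2-/- BMX-001 group stood apart on the first principal component, at 112 against -31.0 to 7.62 for the other 15 libraries. In that library the nuclear RNA Malat1 was at 12210 CPM against 2549 to 5345 CPM elsewhere, the summed granulocyte precursor markers were at 32.0% and the summed S-phase list at 61.2% of the other library of its group. The histone genes were at 56.8% of that other library. Each result is therefore given with all 16 libraries and with the 15 that remain without it.

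The histone genes took 1.49% to 2.70% of all counts in a library, the lowest share being that of the library that stood apart. The 6 H1 genes held 34.8% of the histone counts, the 17 H2B genes 23.7%, the 13 H4 genes 23.1%, the 11 H3 genes 10.5% and the 16 H2A genes 7.96%. By locus, the 52 genes of the large Hist1 cluster held 93.8% of the counts, the 8 Hist2 genes 4.84%, the single Hist4 gene 0.863% and the 2 Hist3 genes 0.522%. Levels were compared between genes only for the 44 with a hairpin in their gene model. The scale was CPM of the whole gene per kilobase of transcript up to the hairpin's end. Counts beyond the hairpin are included and can raise a level. Hist1h1c, the gene of linker histone H1.2, had the highest level on this scale at 2883 CPM per kilobase, followed by Hist1h4d at 2747 and Hist1h4f at 1943. The order depends on the length used. Per kilobase of the full gene model, Hist1h4f was at 1779, Hist1h1c at 1330 and Hist1h4d at 888. On the scale up to the hairpin, 9 genes were over 1000 CPM per kilobase and 4 were under 10, among them Hist1h1t, the testis linker histone gene, at 5.18 and Hist2h3c2 at 7.16.

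To ask how the 5-FU course affected these genes, the 4 libraries given 5-FU, with or without BMX-001, were compared with the 4 not given it in each genotype. In wild-type marrow the summed histone level was 27625 and 25549 CPM with PBS, 22093 and 26943 CPM with BMX-001, 21337 and 17751 CPM with 5-FU, and 20553 and 21145 CPM with both. In Nrf2-/- marrow it was 23731 and 25066 CPM with PBS, 13648 (the library that stood apart) and 24023 CPM with BMX-001, 19974 and 17588 CPM with 5-FU, and 17485 and 18879 CPM with both. On this TMM scale the 5-FU libraries were thus below all others of their genotype, apart from the 1 deviating library. Their mean was 79.0% of the mean without 5-FU in wild-type marrow and 85.5% in Nrf2-/- marrow, or 76.1% without the deviating library. As a share of raw counts, before TMM scaling, the same means were 85.3%, 93.9% and 86.0%: TMM factors were 0.906 to 0.977 in the libraries without 5-FU, apart from 1.10 in the deviating one, and 1.01 to 1.07 with 5-FU, so the scaling made the difference larger. Before scaling, the wild-type libraries with and without 5-FU overlapped. The raw share was 2.15% in replicate 1 of the BMX-001 group. It was 2.20% in replicate 1 of the 5-FU group and 2.21% in replicate 2 of the group given both. In Nrf2-/- marrow the raw shares overlapped through the deviating library alone. In bulk marrow, fewer cells of a type and less histone RNA per cell cannot be told apart.

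**Figure D1:**
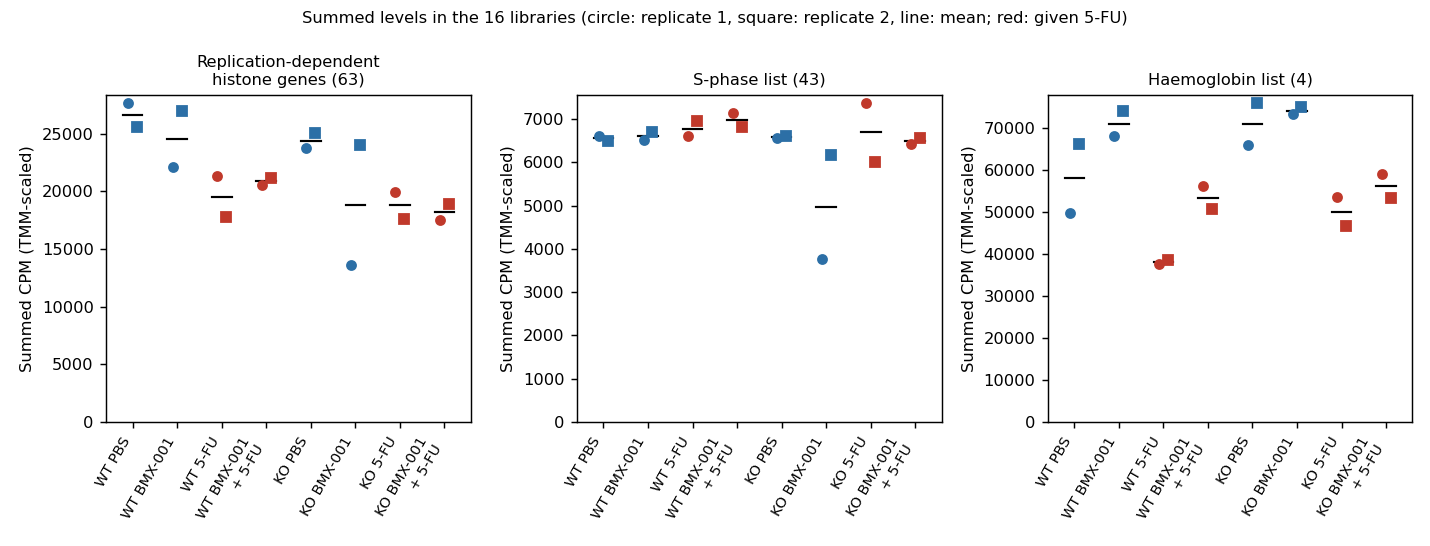
Summed TMM-scaled CPM (linear axes from 0) of the 63 histone genes, the 43 genes of an S-phase list and 4 haemoglobin genes in each library, by group, with circles for replicate 1, squares for replicate 2, lines for group means and red for groups given 5-FU. The histone sums with 5-FU lie at 17485 to 21337 CPM and the others at 22093 to 27625 CPM apart from 13648 CPM in replicate 1 of the Nrf2-/- BMX-001 group, while the S-phase sums of the 2 kinds of group overlap.

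With all 16 libraries, no histone gene passed an adjusted p of 0.05 in edgeR's quasi-likelihood test in either genotype, where 0.0574% of all genes tested passed in wild-type and 1.9% in Nrf2-/- marrow. At an unadjusted p under 0.05 there were 23 histone genes in wild-type marrow, 22 of them lower, where 9.54% of all genes stood, and 9 in Nrf2-/- marrow, 8 of them lower, where 17.2% stood. DESeq2 called 1 gene in wild-type marrow (background 1.2%) and 2 in Nrf2-/- marrow (4.76%). The median log2 fold change over the 63 genes was -0.33 in wild-type and -0.19 in Nrf2-/- marrow, with 59 and 50 genes below 0. Without the deviating library, 21 genes fell in wild-type marrow (33.3%, where 1.38% of all genes fell) and 28 fell in Nrf2-/- marrow (44.4%, where 3.11% fell), and none rose. The medians were then -0.33 and -0.38 against 0.00 and 0.03 over all genes tested, with 59 of 63 genes below 0 in each genotype. The wild-type median was the same in both fits, in which all groups share 1 estimate of the spread. A fit on the wild-type libraries alone called 12 histone genes, all lower (background 2.33%).

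The calls depended on single libraries in both genotypes. In Nrf2-/- marrow the main fit of all 16 libraries had called none, so the calls there rest on leaving out the deviating library. Replicate 2 of the Nrf2-/- BMX-001 group then stands alone, and the Nrf2-/- comparison could not be made without it. Leaving out 1 more library in turn from the 15, the count for wild-type marrow was 0 without replicate 2 of the BMX-001 group or of the 5-FU group (0.158% and 0.173% of all genes called), 1 and 5 without replicate 1 or 2 of the group given both (0.367% and 0.601%), 12 without replicate 2 of the PBS group (0.831%), and at most 25 (1.05%). The share of all genes called was 1.94% with 15 libraries, so it fell together with most of these counts. For Nrf2-/- marrow it stayed between 12 and 32, the 12 being without replicate 1 of the group given both (2.31% of all genes) and a 16 without replicate 2 of the 5-FU group (4.4%). Hist1h1c, Hist1h2af, Hist1h2bn, Hist1h3b and Hist1h3c each passed in 14 of 14 of these Nrf2-/- fits, while Hist2h4 passed in 7. The median stayed below 0 in all 15 such fits that could be made in wild-type marrow (-0.41 to -0.26) and in all 14 in Nrf2-/- marrow (-0.43 to -0.35).

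**Figure D2:**
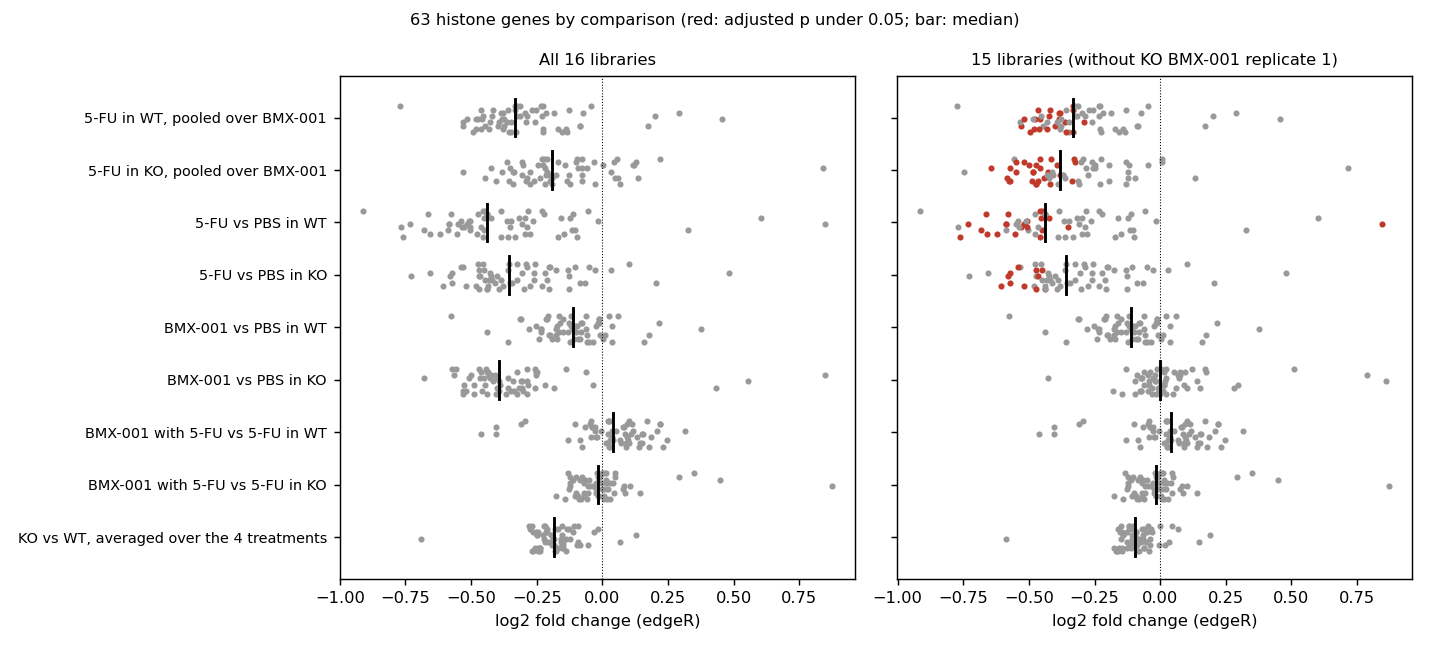
log2 fold change of each of the 63 histone genes (1 point per gene) in 9 comparisons, with all 16 libraries on the left and with 15 on the right, red points passing an adjusted p of 0.05 and bars giving medians. The medians of the 4 comparisons of 5-FU lie between -0.44 and -0.19 on the left and between -0.44 and -0.33 on the right, and red points appear only on the right.

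The linker histones, which bind the DNA between nucleosomes, did not all move alike. Hist1h1c stood at 2706 and 2888 CPM with PBS and at 2187 and 2675 CPM with BMX-001 in wild-type marrow, against 1937 and 1552 CPM with 5-FU and 1773 and 1960 CPM with both. In Nrf2-/- marrow Hist1h1c was at 2430 and 2533 CPM with PBS and 1586 and 2428 CPM with BMX-001, against 1752 and 1587 CPM with 5-FU and 1556 and 1655 CPM with both. The wild-type groups did not overlap, and the Nrf2-/- groups overlapped through the deviating library alone. With 15 libraries Hist1h1c fell by 0.53 ± 0.08 (SE, log2) in wild-type marrow (adjusted p = 0.00494) and by 0.58 ± 0.09 in Nrf2-/- marrow (adjusted p = 0.00106), and it was the 1 histone gene that DESeq2 also called lower in both genotypes with all 16 libraries. Hist1h1d and Hist1h1e, the genes of H1.3 and H1.4, also fell in both genotypes, by 0.36 and 0.46 in wild-type and by 0.42 and 0.43 in Nrf2-/- marrow. Hist1h1a, the gene of H1.1, was at 1215 to 1681 CPM without and 1215 to 1501 CPM with 5-FU in wild-type marrow, ranges that overlapped almost wholly. Its log2 fold change was -0.13 in each genotype (adjusted p = 0.48 and 0.60), and that of Hist1h1b, the gene of H1.5 (chosen after its values were seen), was -0.17 and -0.19 (adjusted p = 0.23 and 0.24).

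Of the 16 H2A genes, whose products form dimers with H2B on the outside of the nucleosome, 6 fell in wild-type and 8 in Nrf2-/- marrow with 15 libraries (medians -0.34 and -0.42). Hist1h2af was at 234 to 248 CPM with PBS and 192 to 230 CPM with BMX-001 in wild-type marrow, and at 140 to 180 CPM in the 4 libraries given 5-FU. It fell by 0.48 ± 0.08 in wild-type and by 0.58 ± 0.09 in Nrf2-/- marrow (adjusted p = 0.00833 and 0.001). Hist1h2ak fell by 0.42 and 0.57 and Hist1h2ab by 0.39 and 0.50 in the same order.

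Of the 17 H2B genes, 5 fell in wild-type and 7 in Nrf2-/- marrow (medians -0.29 and -0.36). Hist1h2bn was at 1216 and 1307 CPM with PBS, 1026 and 1214 CPM with BMX-001, 919 and 801 CPM with 5-FU and 862 and 947 CPM with both in wild-type marrow. In Nrf2-/- marrow Hist1h2bn was at 1180 and 1063 CPM, 660 and 1119 CPM, 854 and 710 CPM, and 703 and 751 CPM in the same order of treatments. Every 5-FU library was below every other library of its genotype except the deviating one, and the gene fell by 0.43 ± 0.08 and 0.57 ± 0.09 (adjusted p = 0.0130 and 0.000806). Hist1h2bg fell by 0.38 and 0.48, and Hist1h2bb by 0.33 and 0.47.

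Of the 11 H3 genes, whose products with H4 form the core of the nucleosome, 6 fell in wild-type and 5 in Nrf2-/- marrow (medians -0.40 and -0.41). Hist1h3c was at 635 and 539 CPM with PBS, 463 and 553 CPM with BMX-001, 440 and 347 CPM with 5-FU and 412 and 439 CPM with both in wild-type marrow, again without overlap. It fell by 0.42 ± 0.08 in wild-type and by 0.55 ± 0.09 in Nrf2-/- marrow (adjusted p = 0.0192 and 0.00197). Hist1h3i had the largest decrease of the H3 genes in wild-type marrow, by 0.52 ± 0.10, and fell by 0.55 ± 0.11 in Nrf2-/- marrow. Hist1h3b fell by 0.38 and 0.47, Hist1h3f by 0.46 and 0.47, and Hist1h3e passed in wild-type marrow alone (-0.49, adjusted p = 0.0374, against -0.39, adjusted p = 0.113).

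Of the 13 H4 genes, 1 fell in wild-type and 5 in Nrf2-/- marrow (medians -0.33 and -0.37). The 1 was Hist1h4f, at 757 to 933 CPM without 5-FU and 559 to 698 CPM with it in wild-type marrow, and at 756 to 905 CPM without it in the 3 Nrf2-/- libraries that remain and 525 to 630 CPM with it. It fell by 0.36 ± 0.09 and 0.47 ± 0.10 (adjusted p = 0.0450 and 0.00885). Hist2h4, an H4 gene outside the large cluster, fell by 0.64 ± 0.14 in Nrf2-/- marrow (adjusted p = 0.0308), a call that held in 7 of 14 fits with 1 more library left out, and its wild-type value of -0.45 ± 0.13 did not pass (adjusted p = 0.0985). Hist1h4d, among the most abundant of the H4 genes, had values of -0.32 and -0.29 that did not pass in either genotype (adjusted p = 0.0685 and 0.134). In the narrower comparison of 5-FU with PBS in wild-type marrow, Hist1h4d fell by 0.46 ± 0.13 (adjusted p = 0.0384).

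**Figure D3:**
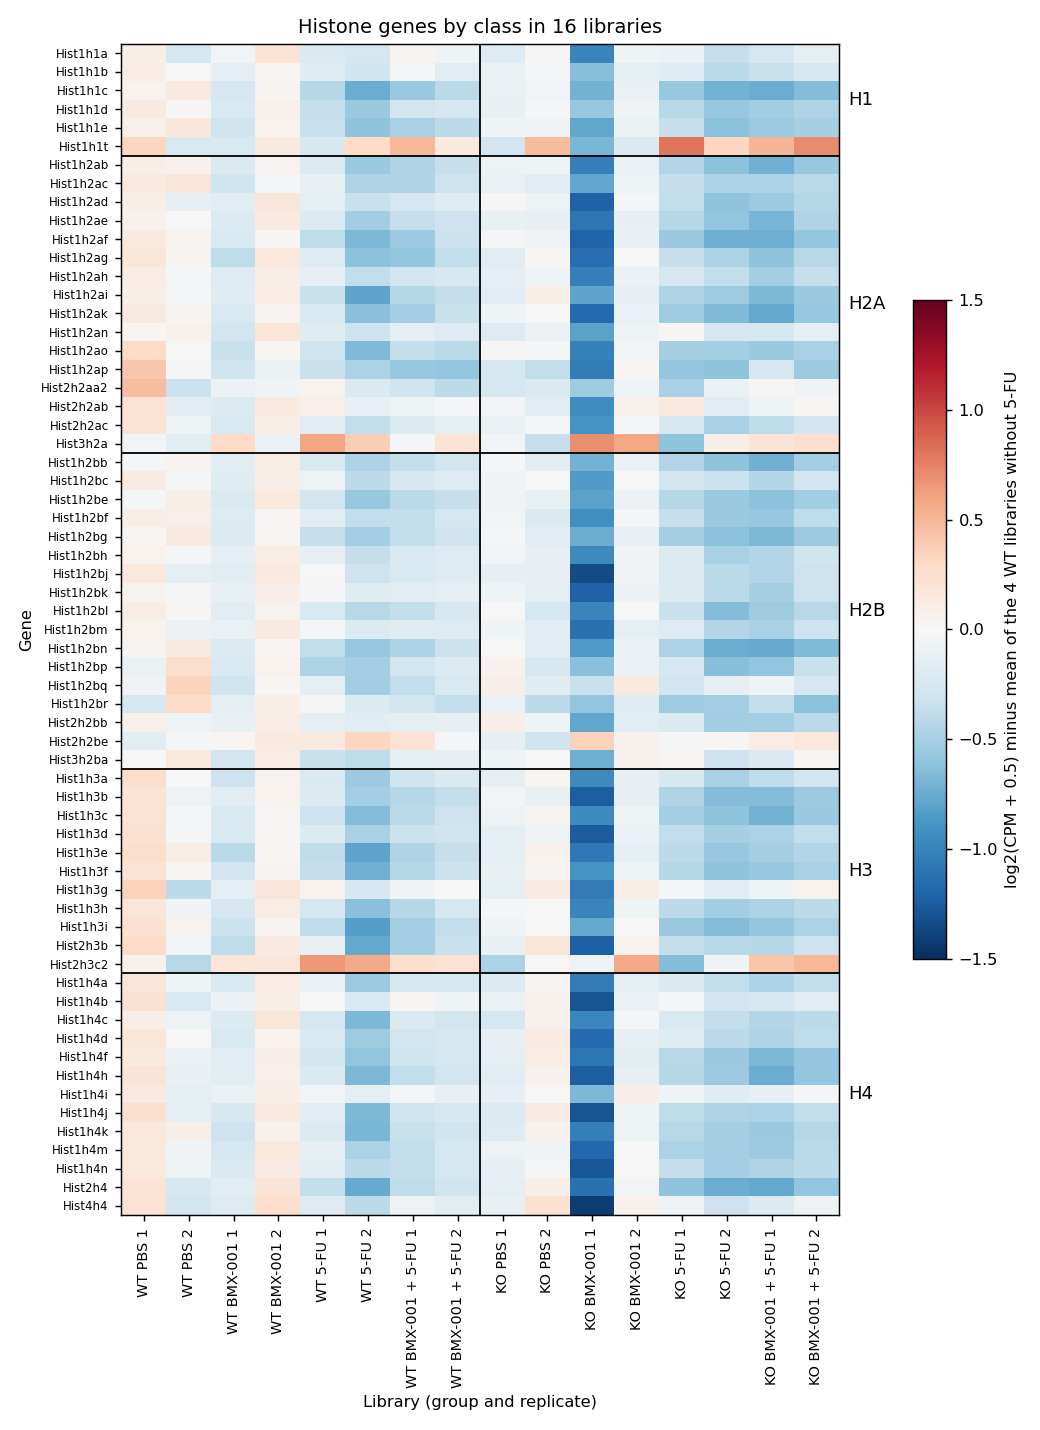
Each of the 63 histone genes (rows, by class) in each of the 16 libraries (columns), coloured by log2(CPM + 0.5) minus the gene's mean over the 4 wild-type libraries without 5-FU, on a scale from -1.5 to 1.5. The columns of the libraries given 5-FU and that of replicate 1 of the Nrf2-/- BMX-001 group are mostly below 0. Some other columns are mostly below 0 as well, though their histone sums are higher than with 5-FU. They are replicate 1 of the wild-type BMX-001 group (22093 CPM), replicate 1 of the Nrf2-/- PBS group (23731 CPM) and replicate 2 of the Nrf2-/- BMX-001 group (24023 CPM). The low-level genes Hist1h1t, Hist3h2a and Hist2h3c2 depart from the other genes.

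The genes above 0 in either genotype with 15 libraries were all at low levels. Some genes at higher levels changed little too. Hist1h4b was at 320 to 440 CPM without and 321 to 379 CPM with 5-FU in wild-type marrow. Its log2 fold change was -0.07 in wild-type and -0.12 in Nrf2-/- marrow. In the same order, Hist1h3g had values of -0.09 and -0.10 and Hist1h4i of -0.09 and -0.12. Hist1h1t, normally a gene of spermatocytes, was at 2.66 to 4.14 CPM without and 2.65 to 4.76 CPM with 5-FU in wild-type marrow, and at 1.81 to 4.68 CPM without and 4.12 to 5.96 CPM with it in Nrf2-/- marrow. Its log2 fold change was 0.20 ± 0.23 and 0.71 ± 0.26 and did not pass in either genotype with edgeR (adjusted p = 0.71 and 0.19), while DESeq2 with all 16 libraries called it higher in Nrf2-/- marrow (0.83, adjusted p = 0.0299). Hist2h3c2 was at 2.91 to 4.68 CPM without and 4.78 to 6.63 CPM with 5-FU in wild-type marrow, the 1 histone gene whose 5-FU libraries all lay above the others there, with 0.45 ± 0.17 in wild-type (adjusted p = 0.16) and -0.12 ± 0.19 in Nrf2-/- marrow. Hist3h2a, of the small Hist3 cluster, had values of 0.29 ± 0.15 and -0.20 ± 0.17 (adjusted p = 0.35 and 0.64). Hist2h2be, an H2B gene whose annotated transcript is long and holds no hairpin match (chosen after its values were seen), had values of 0.17 ± 0.08 and 0.13 ± 0.09 (adjusted p = 0.28 and 0.50).

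Counted without a model, 22 of the 63 genes (34.9%) had all 4 wild-type 5-FU libraries below all 4 others, where 4.49% of all genes tested did, and 1 (1.59%) had them above, where 3.21% did. In Nrf2-/- marrow the count was 0 in both directions with all libraries (4.43% lower and 3.49% higher among all genes) and 46 lower (73%) without the deviating library, where 8.31% of all genes were lower, and 0 higher, where 6.02% were. With 15 libraries, 20 genes fell in both genotypes, which is 95.2% of the wild-type calls and 71.4% of the Nrf2-/- calls. Over all genes tested, 170 fell in both, which is 62.7% of 271 wild-type and 27.7% of 613 Nrf2-/- decreases. The share that fell in both was 31.7% of the histone genes and 0.863% of all genes. Below 0 in both genotypes were 57 histone genes, and 28.5% of all genes. The difference between the genotypes in the 5-FU effect was tested directly. No histone gene passed (background 0% with 16 and with 15 libraries), 1 gene stood at an unadjusted p under 0.05 in each fit (6.79% and 6.98% of all genes), and DESeq2 called none in either (0.204% and 0.665%). The median difference, Nrf2-/- minus wild type, was 0.14 with all libraries and -0.04 with 15.

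**Figure D4:**
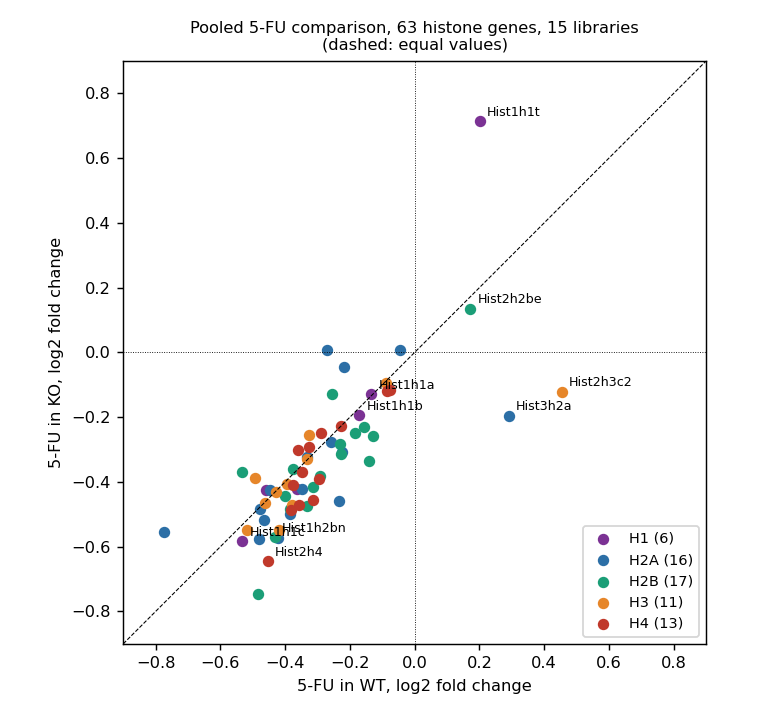
log2 fold change with 5-FU in Nrf2-/- marrow (vertical) against that in wild-type marrow (horizontal) for the 63 histone genes, from the fit of 15 libraries, coloured by class, with a dashed line of equal values. Of the 63 points, 57 lie below 0 on both axes, and the other 6 points, among them Hist1h1t, Hist2h2be, Hist3h2a and Hist2h3c2, lie outside that quadrant.

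The single-agent comparison, 5-FU against PBS, rests on 2 libraries a group and shares the PBS and 5-FU libraries with the pooled one. With 16 libraries none passed in either genotype (background 0.00522% in wild-type and 0.454% in Nrf2-/- marrow). The medians were -0.44 and -0.36, and 21 and 13 genes stood at an unadjusted p under 0.05, where 14.4% and 9.42% of all genes did. DESeq2 called 2 genes in wild-type marrow, Hist1h1c and Hist1h3i, both lower (background 2.47%), and none in Nrf2-/- marrow (1.98%). With 15 libraries 22 genes fell in wild-type marrow (where 3.74% of all genes fell) and Hist2h3c2 rose (0.85 ± 0.23, adjusted p = 0.0399, where 3.13% of all genes rose), and 11 fell in Nrf2-/- marrow (2.4%). The wild-type count was 0 without replicate 2 of the 5-FU group (0.0459% of all genes called), and 8 and 11 without replicate 2 or 1 of the PBS group (1.17% and 8.2%). The Nrf2-/- count was 0 without replicate 1 of the PBS group or replicate 2 of the 5-FU group (1.31% and 1.83%), 3 without replicate 2 of the PBS group (2.72%) and 5 without replicate 1 of the 5-FU group (1.41%). It was 7 without replicate 1 or 2 of the wild-type group given both agents (2.46% and 2.47%).

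To ask whether BMX-001 alone moved the histone genes, it was compared with PBS. In wild-type marrow the median was -0.11, no gene passed (background 0%), and 0 genes with 16 and 2 with 15 libraries stood at an unadjusted p under 0.05 (5.1% and 10.4% of all genes). DESeq2 called none in either fit (0.00522% and 0.391%). On top of 5-FU the medians were 0.04 in wild-type and -0.02 in Nrf2-/- marrow, again with no gene past the adjusted threshold (background 0% in each with 16 libraries, 0% and 0.00508% with 15). At an unadjusted p under 0.05 there were 0 and 1 genes with 16 libraries (3.93% and 2.61% of all genes). DESeq2 called none with 16 (0% and 0.0313%) or with 15 libraries (0.234% and 0.0457%). Against PBS in Nrf2-/- marrow the median was -0.39 with all libraries and -0.00 without the deviating library, which is 1 of the 2 BMX-001 libraries there. No gene passed in edgeR with either set (background 0.00522% and 0%), and 5 and 2 genes stood at an unadjusted p under 0.05 (30.6% and 9% of all genes). DESeq2 called Hist2h2be (0.42) and Hist3h2a (0.84) higher with all 16 libraries (background 9.58%) and none with 15 (0.305%).

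For the genotype itself, averaged over the 4 treatments, 61 of 63 histone genes were lower in Nrf2-/- marrow with all libraries (median -0.18) and 57 were lower with 15 (median -0.10), against a median of 0.00 over all genes in both fits. No gene passed in edgeR (background 0.178% with 16 and 1.39% with 15 libraries). At an unadjusted p under 0.05 there were 8 and 13 genes, all lower, where 12.7% and 13.6% of all genes stood. DESeq2 called none with 16 libraries (background 1.81%) and 1 with 15, Hist2h2bb (-0.18, adjusted p = 0.0478, background 2.87%). Hist1h2bn had values of -0.16 ± 0.06 (adjusted p = 0.24) and Hist1h4f of -0.15 ± 0.07 (adjusted p = 0.33) with 15 libraries.

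The histone genes were next set beside S phase, since their transcription is tied to it. The S-phase list held 43 genes, many of replication licensing, forks and nucleotide supply. It also held Slbp, Casp8ap2 and Nasp, which appear again below among the histone processing and chaperone genes. The summed list was at 6500 to 6694 CPM without and 6604 to 7135 CPM with 5-FU in wild-type marrow. In Nrf2-/- marrow it was at 6172 to 6605 CPM without (3775 CPM in the deviating library) and 6020 to 7370 CPM with 5-FU. These ranges overlapped, and the 5-FU mean was 104.5% and 102.3% of the mean without 5-FU, the second without the deviating library (114.1% with it). The summed histone level divided by the summed S-phase level was 4.18, 3.93, 3.39 and 4.03 in the 4 wild-type libraries without 5-FU and 3.23, 2.55, 2.88 and 3.10 in the 4 with it. In Nrf2-/- marrow it was 3.62, 3.80, 3.62 and 3.89 without 5-FU and 2.71, 2.92, 2.72 and 2.88 with it. The 2 sets did not overlap in either genotype, and the deviating library, at 3.62, lay with the other libraries without 5-FU. The means with 5-FU were 75.8% and 75.3% of those without. In the deviating library the ratio was 92.9% of that in the other library of its group, as both sums were low there.

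Gene by gene with 15 libraries, 1 of the 43 S-phase genes passed in wild-type marrow, the chromatin remodeller Hells, which rose (0.33, adjusted p = 0.0181), and none passed in Nrf2-/- marrow. Their medians were 0.05 and 0.05. Pcna, the replication clamp, had values of -0.03 and 0.03, Mcm5 of the replicative helicase -0.04 and 0.05, Rrm2 of ribonucleotide reductase 0.13 and 0.09, and Tyms, the thymidylate synthase that 5-FU inhibits, 0.17 and 0.12, none of which passed. Of 52 G2 and mitosis genes, G2e3 rose in wild-type marrow, and Anln, Nusap1, Ect2, Cenpf and Ckap5 fell in Nrf2-/- marrow (medians -0.03 and -0.14). Top2a had values of -0.01 and -0.13 and Mki67 of 0.02 and -0.23.

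With the mean log2 CPM of the S-phase list added to the model as a covariate, the median over the histone genes was -0.41 in wild-type and -0.43 in Nrf2-/- marrow with all 16 libraries, and -0.36 and -0.41 with 15. With 16 libraries that fit called 25 genes lower in wild-type (background 3.47%) and 18 lower in Nrf2-/- marrow (2.37%). The fit without the covariate had called none there (background 0.0574% and 1.9%), so the share of all genes called rose too. The S-phase sum was 3775 CPM in the deviating library and 6020 to 7370 CPM in the others. With 16 libraries the covariate therefore largely marks that library. Adjusting for S phase cannot be told apart there from setting that library aside. With 15 libraries the covariate fit called 16 lower and 1 higher in wild-type (3.41%) and 19 lower in Nrf2-/- marrow (3.15%). These are fewer than the 21 and 28 lower without the covariate (1.94% and 3.49% of all genes called in either direction). Between the 2 libraries of a group, which share their treatment, the median histone difference and the S-phase difference had the same sign in 6 of 8 groups. The granulocyte precursor list also matched in 6 of 8, Malat1, the haemoglobin genes and the G2 and mitosis list in 4 of 8, and the mitochondrial mRNAs in 3 of 8.

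Of 26 tested genes for histone transcription and 3′ processing, none passed in either genotype with 15 libraries (medians -0.03 and -0.01). Slbp had values of 0.07 and 0.02, Npat 0.12 and 0.01, Casp8ap2 (the histone locus body protein FLASH) 0.15 and 0.06, and Eri1, an exonuclease that trims the hairpin, 0.09 and -0.01. Slbp itself was at 187 to 200 CPM without and 192 to 212 CPM with 5-FU in wild-type marrow. Of 22 histone chaperone genes none passed in wild-type marrow and Ubn1 fell in Nrf2-/- marrow. Nasp, which stores H3 and H4, had values of 0.04 and 0.13.

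Many replacement histones are made outside S phase from genes with introns and poly(A) tails. A list of them served as a contrast, although not every gene on it has these traits. Of 11, H2afv, H3f3a and H3f3b fell in wild-type marrow and H3f3a in Nrf2-/- marrow with 15 libraries (medians -0.18 and -0.06, against -0.33 and -0.38 for the replication-dependent genes). H3f3a, an H3.3 gene, fell by 0.27 and 0.32 (adjusted p = 0.0312 and 0.0131). H2afx, whose H2A.X product is phosphorylated at DNA breaks and which also makes a hairpin form, had values of -0.28 and -0.30 (adjusted p = 0.0730 and 0.0695), and H2afz of -0.11 and 0.04. Their summed level was 83.9% and 87.2% of that without 5-FU, and 106.4% in the deviating library against the other of its group.

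**Figure D5:**
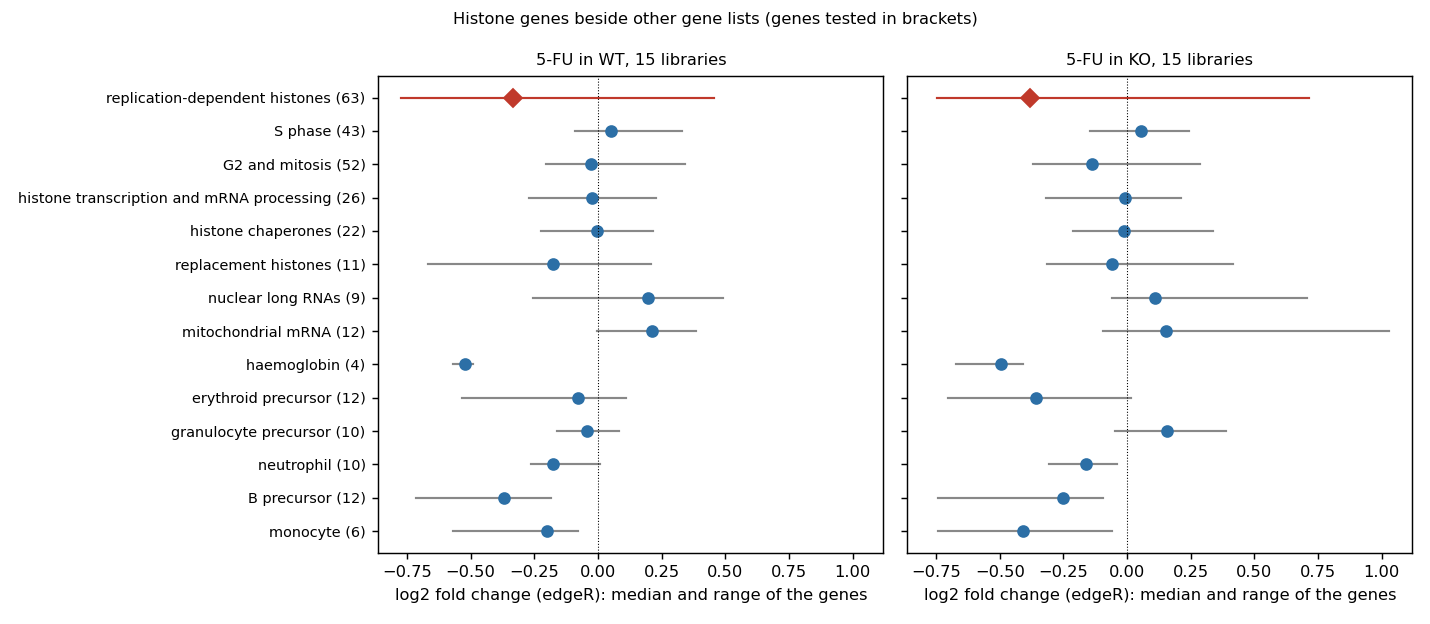
Median (marker) and range (line) of the log2 fold change with 5-FU over the tested genes of each list, from the fit of 15 libraries, for wild-type marrow on the left and Nrf2-/- marrow on the right, with the number of genes in brackets. The histone medians of -0.33 and -0.38 lie below those of the S-phase list (0.05 and 0.05), and those of the haemoglobin genes (-0.52 and -0.50) lie lower still.

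Library preparation matters for these genes because selection on poly(A) would leave out most hairpin-ended RNA, and the selection used is not given in the sources used here. Rmrp, a short RNA without a poly(A) tail, was at 0 in every library, the short non-polyadenylated RNAs together were at 3.01 to 5.60 CPM, and ribosomal RNA leftovers were at 0.273 to 1.24 CPM, while the histone genes stood at 13648 to 27625 CPM. Malat1 was at 2660 to 4807 CPM without and 3553 to 5345 CPM with 5-FU in wild-type marrow, and its 5-FU mean was 116.2% of the other in wild-type and 100.6% in Nrf2-/- marrow without the deviating library. With 15 libraries its log2 fold changes were 0.20 and -0.06, those of Neat1 were 0.32 and 0.05, and neither passed. Of 9 nuclear long RNAs, Pvt1 rose in both genotypes, and of 12 mitochondrial mRNAs none passed (medians 0.21 and 0.15).

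With the log2 CPM of Malat1 as a covariate, the histone medians were -0.21 in wild-type and -0.35 in Nrf2-/- marrow with 16 libraries and -0.29 and -0.39 with 15. Malat1 was at 12210 CPM in the deviating library and 2549 to 5345 CPM elsewhere. With 16 libraries this covariate thus has the same limit as the S-phase one. The calls were 1 (background 1.44%) and 13 (2.34%) with 16 libraries, and 10 lower (2.22%) and 28 lower (3.5%) with 15. The wild-type count with 15 libraries was 21 without the covariate. Whether RNA selection or quality contributed to the difference with 5-FU was not tested beyond these values.

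The markers of several marrow cell types moved with 5-FU too. The haemoglobin sum was at 49817 to 74005 CPM without and 37490 to 56144 CPM with 5-FU in wild-type marrow and at 65839 to 75818 and 46629 to 58971 CPM in Nrf2-/- marrow, so the 5-FU means were 70.9% and 73.3% of the others. All 4 haemoglobin genes fell in wild-type and 3 of 4 in Nrf2-/- marrow with 15 libraries. Of 12 erythroid precursor genes 2 fell in wild-type and 8 in Nrf2-/- marrow, with summed levels at 77.8% and 69.3% (the second without the deviating library). The 12 B-cell precursor genes were all below 0 in both genotypes with none past the test, their summed level being 76.6% and 84.7% on the same basis. The summed granulocyte precursor list was not lower, at 100.7% in wild-type and 110.8% in Nrf2-/- marrow, the second without the deviating library (135.4% with it). The part of these cell types in the histone difference was not tested.

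Many of these genes are near-copies of each other, so reads can be hard to assign, and how the authors' counting treated reads with several matches is not given in the sources used here. Of the 63 genes, 54 shared at least one 100-base stretch with another gene of the annotation and 23 shared over 50% of their stretches, and values of single genes among them are uncertain. The 9 genes with no shared stretch had medians of -0.14 in wild-type and -0.20 in Nrf2-/- marrow with 0 and 2 called lower, the 31 with up to 50% shared had -0.33 and -0.36 with 14 and 15, and the 23 with over 50% had -0.39 and -0.43 with 7 and 11. The first set holds Hist1h1a, Hist1h1b, Hist1h1t, Hist1h4d, Hist2h2bb, Hist2h2be, Hist2h4, Hist3h2a and Hist4h4. By hairpin, the 31 genes with the strict form had medians of -0.33 and -0.39 with 15 and 16 called, the 13 with the looser form alone -0.32 and -0.30 with 1 and 5, and the 19 with neither -0.38 and -0.41 with 5 and 7.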

How the data were processed

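RNA was extracted from whole bone marrow cells with the RNeasy Mini Kit and sequenced as paired reads on a NovaSeq X, per the labels' protocols. The table the authors deposited holds unnormalised counts of 57132 Ensembl genes in 16 libraries, 51880 of them with a symbol. Per the submitters' processing notes, the build was GRCm39 and the tools included featureCounts, Salmon 1.4.0, Trim Galore 0.6.4 and FastQC 0.12.1, with DESeq2 1.38.3 under R 4.3.0. Not given in the sources used here: aligner, annotation release, strand setting, treatment of reads with several matches and RNA selection. Names, gene types and transcripts came from GENCODE and RefSeq for the earlier build GRCm38, and coordinates of that build only are printed.

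Counts were filtered with filterByExpr, scaled with TMM and fitted with the robust quasi-likelihood test of edgeR 4.0.16 in R 4.3.3 on 8 group means (19152 genes and 8 residual degrees of freedom, or 19694 genes and 7 with 15 libraries). In all, 10 comparisons were made, each with Benjamini-Hochberg adjustment over all genes tested and a threshold of 0.05. The pooled 5-FU comparison averages the difference over PBS and BMX-001. A pseudocount of 0.5 served the colour plot, the gene-level differences between the 2 libraries of a group and their correlations between groups. The fit was tested on simulated counts. Alternatives were DESeq2 1.42.0, RLE factors, no filter, the groups of a comparison alone, a replicate block, S-phase and Malat1 covariates, and libraries left out. The 6 alternatives that combine 15 libraries with another choice were added after the data were seen.

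Genes were named by a rule: the 3 most abundant of each class, up to 10 called, the extremes of each comparison, those next to the count minimum, and fixed members of the other lists. The members and all 19 lists were chosen with earlier results of these data known. Total counts of 27305707 to 39909188 per library leave little counting error in any but the lowest genes. Same-numbered replicates did not deviate together: over 28 pairs of groups the correlation of deviations was -0.518 to 0.337 (median 0.0233), with 11 over 0.1, so no pairing was assumed.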

Additional observations from a re-analysis of the deposited data

How the results depend on the processing

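With all 16 libraries the number of histone genes called by edgeR was 0 in each of the 10 comparisons, with RLE factors or a replicate block also 0. The replicate block with 15 libraries, where the numbers do not pair the samples, gave 15, 21, 21 and 7 for 5-FU in wild type, 5-FU in Nrf2-/-, 5-FU against PBS in wild type and in Nrf2-/- (1.86%, 3.07%, 6.73% and 2.97% of all genes called, as in the brackets that follow). In this same order, DESeq2 gave 1, 2, 2 and 0 with 16 libraries (1.2%, 4.76%, 2.47% and 1.98%), also 2 for BMX-001 in Nrf2-/- (9.58%), and 37, 40, 35 and 29 with 15 (4.28%, 5.1%, 8.43% and 5.29%). No filter gave 21, 11, 18 and 7 (1.26%, 5.24%, 1.86% and 2.16%), and also 12 for genotype (2.57%) and 30 for BMX-001 in Nrf2-/- (10.7%). The groups of a comparison alone gave 12, 0, 0 and 5 (2.33%, 0.345%, 0% and 1.16%). The S-phase covariate gave 25, 18, 22 and 4 with 16 libraries (3.47%, 2.37%, 7.59% and 1.84%) and 17, 19, 28 and 8 with 15 (3.41%, 3.15%, 11.3% and 3.03%). The Malat1 covariate gave 1, 13, 1 and 0 with 16 libraries (1.44%, 2.34%, 5.21% and 1.76%), with 3 for genotype (2.8%), and 10, 28, 5 and 12 with 15 (2.22%, 3.5%, 4.01% and 3.26%). RLE factors with 15 libraries gave 20, 30, 23 and 13 (1.91%, 3.65%, 6.8% and 3.09%). For genotype DESeq2 with 15 libraries gave 1 (2.87%). Leaving out 1 library, or the deviating library and 1 more, gave 0 to 25, 0 to 32, 0 to 27 and 0 to 15 for the 4 comparisons of 5-FU, 0 to 52 for genotype, 0 to 32 for the difference in the 5-FU effect and 0 to 58 for BMX-001 in Nrf2-/-. The 52, 58 and the 32 of the difference come without replicate 2 of the Nrf2-/- BMX-001 group, where the deviating library alone stands for that group and is assumed to vary like the others.

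The median over the histone genes kept its sign in 44 of 44 settings for 5-FU in wild type (-0.41 to -0.21), 42 of 43 in Nrf2-/- (-0.43 to 0.09) and 42 of 42 for genotype (-0.33 to -0.06). For 5-FU against PBS it did so in 44 of 44 in each genotype (-0.60 to -0.19 and -0.45 to -0.30). It was less steady for the difference in the 5-FU effect (22 of 42, -0.13 to 0.43), for BMX-001 against PBS (42 of 44 in wild type, -0.30 to 0.04, and 37 of 43 in Nrf2-/-, -0.97 to 0.08), and for BMX-001 on top of 5-FU (39 of 44, -0.15 to 0.20, and 37 of 44, -0.13 to 0.13). Hist3h2ba between genotypes, near 0 in the test of 16 libraries, turned positive under the S-phase covariate (0.123) and, with 15 libraries, under DESeq2 (0.0683), the S-phase (0.117) and Malat1 covariates (0.0601), the replicate block (0.0621) and RLE factors (0.0683), and ranged from -0.138 to 0.122 with libraries left out. Hist2h2ab with 5-FU in Nrf2-/- turned negative under the S-phase (-0.0656) and Malat1 covariates (-0.00439) and, with 15 libraries, under DESeq2 (-0.00221), the S-phase (-0.0494) and Malat1 covariates (-0.0274), the replicate block (-0.0113) and RLE factors (-0.00217), and ranged from -0.0733 to 0.539 with libraries left out. Hist1h3b there ranged from -0.52 to 0.10, the 0.10 without replicate 2 of the Nrf2-/- BMX-001 group. The causes were not tested. With 2 libraries a group, 1 library decides many calls, and genes of a few CPM have the least precision.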

Other observations

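Among genes outside the histone lists, 2 of 10 early p53 targets rose after 5-FU in wild-type marrow with 15 libraries, the death receptor gene Eda2r and the cyclin gene Ccng1. In Nrf2-/- marrow 3 rose and 1 fell. The monocyte gene Cx3cr1 fell in both genotypes, within a list of 6 of which 1 and 3 fell (medians -0.20 and -0.41), and Ms4a3 rose in Nrf2-/- marrow among 10 granulocyte precursor genes. Between genotypes, Ncbp2, a subunit of the nuclear cap-binding complex that also serves histone mRNA, was lower in Nrf2-/- marrow (-0.23, adjusted p = 0.0320, edgeR with 15 libraries), as were the transferrin receptor gene Tfrc and the B-cell receptor gene Cd79a.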
